A study of Mus musculus with 15 samples.

Results

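The genes described here are 9 genes used as markers of mast cells and basophils in the mouse: Cpa3, Mcpt8, Prss34, Fcer1a, Ms4a2, Hdc, Cma1, Tpsb2 and Il1rl1. They were chosen by name from the 38315 genes of the deposited table, and each name matched 1 row. Of the 9, 7 passed the filter for low values that left 18941 genes for testing, and Cma1 and Tpsb2 did not. The study sequenced total RNA of mouse bone marrow in 15 libraries to set leukaemic against normal marrow. The AML group held 7 marrows with acute myeloid leukaemia from NUP98-NSD1/FLT3-ITD mice. The NUP98-NSD1 fusion links a nuclear pore protein to an enzyme that methylates histones, and FLT3-ITD is a duplication within the FLT3 kinase receptor that keeps it active. The reference groups were 4 whole marrows and 4 lineage-negative marrows of wild-type mice, which carry neither allele. Lineage-negative marrow is what is left once cells bearing surface markers of mature blood cells are removed, but the labels do not list the antibodies. Neither age, sex, strain, the promoter that drives the fusion nor the share of leukaemic cells is given in the labels used here. The labels do not state that each library came from a separate mouse, so p-values measure the spread between these libraries, which may in part be technical.

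Mast cells and basophils are the granulated cells of allergic responses and of defence against parasites. Both carry the high-affinity IgE receptor, built from an alpha chain that binds IgE (Fcer1a), a beta chain that amplifies the signal (Ms4a2) and a signalling gamma chain that many other leukocytes share (Fcer1g). Basophils mature in the marrow, whereas mast cells leave it as progenitors and mature in tissues, where they store chymases and tryptases with heparin. GATA factors, GATA2 above all, are known regulators of genes of both lineages.

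The sequence just before the starts of the genes tested is shown with every match to a short GATA word in capitals. The windows run from 250 bases before to 50 after the start of the gene, are written 5′ to 3′ along the gene, and were taken from RefSeq on GRCm38.p6. The 4 words searched, each 6 bases long and on both strands, were AGATAA together with the variant AGATAG, and the word TGATAA together with the variant TGATAG. A match on the other strand is printed as the reverse complement of the word.
Cpa3 promoter, chr3:20242132-20242431, minus strand: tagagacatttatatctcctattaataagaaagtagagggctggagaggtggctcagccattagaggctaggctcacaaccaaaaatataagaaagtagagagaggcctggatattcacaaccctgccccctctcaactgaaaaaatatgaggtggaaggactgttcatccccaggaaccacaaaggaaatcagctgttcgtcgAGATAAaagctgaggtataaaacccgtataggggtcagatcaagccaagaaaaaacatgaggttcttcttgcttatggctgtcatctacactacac
Prss34 promoter, chr17:25298144-25298443, plus strand: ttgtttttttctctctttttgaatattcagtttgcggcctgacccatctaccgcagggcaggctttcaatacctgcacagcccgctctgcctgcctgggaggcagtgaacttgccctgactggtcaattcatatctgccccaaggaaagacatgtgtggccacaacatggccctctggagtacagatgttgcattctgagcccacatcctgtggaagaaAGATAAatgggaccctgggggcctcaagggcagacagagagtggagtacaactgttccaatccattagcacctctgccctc
Mcpt8 promoter, chr14:56085148-56085447, minus strand: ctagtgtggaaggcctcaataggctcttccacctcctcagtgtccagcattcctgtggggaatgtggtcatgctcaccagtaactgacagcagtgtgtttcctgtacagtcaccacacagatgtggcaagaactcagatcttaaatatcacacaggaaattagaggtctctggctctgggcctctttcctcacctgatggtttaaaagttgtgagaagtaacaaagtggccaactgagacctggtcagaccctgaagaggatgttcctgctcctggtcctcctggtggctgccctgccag
Fcer1a promoter, chr1:173227180-173227479, minus strand: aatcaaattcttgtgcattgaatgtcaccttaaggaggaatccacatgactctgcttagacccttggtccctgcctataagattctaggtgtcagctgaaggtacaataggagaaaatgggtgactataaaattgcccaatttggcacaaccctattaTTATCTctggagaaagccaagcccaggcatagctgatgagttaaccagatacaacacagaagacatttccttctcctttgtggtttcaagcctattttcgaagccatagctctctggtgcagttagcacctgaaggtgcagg
Ms4a2 promoter, chr19:11623670-11623969, minus strand: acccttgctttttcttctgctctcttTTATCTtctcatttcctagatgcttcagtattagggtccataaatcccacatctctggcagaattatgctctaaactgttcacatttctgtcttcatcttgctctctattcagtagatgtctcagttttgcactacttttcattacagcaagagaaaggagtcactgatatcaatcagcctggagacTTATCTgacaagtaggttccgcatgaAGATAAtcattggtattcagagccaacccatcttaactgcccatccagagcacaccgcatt
Hdc promoter, chr2:126618629-126618928, minus strand: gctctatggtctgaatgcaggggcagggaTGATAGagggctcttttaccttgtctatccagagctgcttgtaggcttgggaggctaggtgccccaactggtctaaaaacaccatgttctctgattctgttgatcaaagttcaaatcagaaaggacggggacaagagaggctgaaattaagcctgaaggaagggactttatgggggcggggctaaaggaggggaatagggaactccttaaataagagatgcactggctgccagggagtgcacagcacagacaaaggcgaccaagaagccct
Il1rl1 distal promoter, chr1:40429320-40429619, plus strand: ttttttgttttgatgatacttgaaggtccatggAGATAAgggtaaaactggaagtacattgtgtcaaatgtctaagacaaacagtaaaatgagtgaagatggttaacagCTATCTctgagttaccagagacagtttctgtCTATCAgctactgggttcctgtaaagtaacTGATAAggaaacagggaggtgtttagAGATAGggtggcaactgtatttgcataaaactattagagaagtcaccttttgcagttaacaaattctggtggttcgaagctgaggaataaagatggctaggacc

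The table of promoters held 8 of the 9 genes, with 2 windows for Il1rl1 and none for Tpsb2. A GATA word was present for 7 of these 8 genes, and in 8 of their 9 windows. The genes with a match include Cma1, at −79, which did not pass the filter and whose window is not printed. Over all 32851 windows of this length the share with at least 1 match was 29.8%, and 7.77% held at least 2. That share is not matched for base composition, and a link between the words and expression was not tested. The distal Il1rl1 window held 5 matches and the Ms4a2 window 3, at −224, −37 and −11 from the start. Cpa3 and Prss34 each held AGATAA close to the start, at −46 and −31. The Fcer1a match lay at −92 and the Hdc match at −221. No such word was found in the window of Mcpt8. A match describes letters in a window and is not a measured binding site.

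Estimated depth, in units of 1e6 reads, was 20.3 to 35.1 in AML, 11.4 to 17.2 in wild-type whole marrow and 20.3 to 28.1 in lineage-negative marrow. A floor of 3 reads corresponded to 1.96 to 4.09 normalized counts, the deposited unit. The whole marrow libraries stood apart at the low end. Only 7.12% to 15.7% of genes were at 0 there, against 35.7% to 41.0% in lineage-negative marrow and 23.6% to 41.4% in AML. The mean of 1452 olfactory and vomeronasal receptor genes, which marrow is not known to use, was 7.14 to 13.5 in whole marrow and 0.384 to 0.499 in lineage-negative marrow. The AML libraries had 0.465 to 0.746 apart from replicates 5 and 6, with 1.33 and 3.81. The 7 genes tested lay far above that level in whole marrow, where their lowest value was 78.1. The median log2 difference over all genes tested was 0.67 for AML minus whole marrow, 0.02 for AML minus lineage-negative and 0.59 for lineage-negative minus whole. Differences relative to these medians are therefore given too.

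Basophil genes were low in AML marrow and high in lineage-negative marrow. The same 6 members differed in each of the 3 comparisons: the basophil proteases Mcpt8 and Prss34, the granule carboxypeptidase Cpa3, the receptor chains Fcer1a and Ms4a2, and the IL-33 receptor Il1rl1. Hdc, which encodes the enzyme that makes histamine, passed the test in none. A call needed both an adjusted p below 0.05 and a log2 difference of 1 or more in size. Against whole marrow, 6 of the 7 genes tested were called lower in AML and 0 higher, where 11.3% of all genes tested were called lower and 27.3% higher. Their median log2 difference was −2.43, beside 0.67 over all genes. Against lineage-negative marrow, 6 of 7 were again lower and 0 higher, where 12.5% of all genes were called lower and 17.7% higher, with a median of −4.90 beside 0.02. Lineage-negative against whole marrow gave 6 of 7 higher and 0 lower, where 33.1% of all genes were called higher and 17.2% lower, with a median of 2.58 beside 0.59. The 3 comparisons share their groups, so they are not independent of each other. In bulk RNA, fewer cells of a type and less RNA per cell cannot be told apart.

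**Figure D1:**
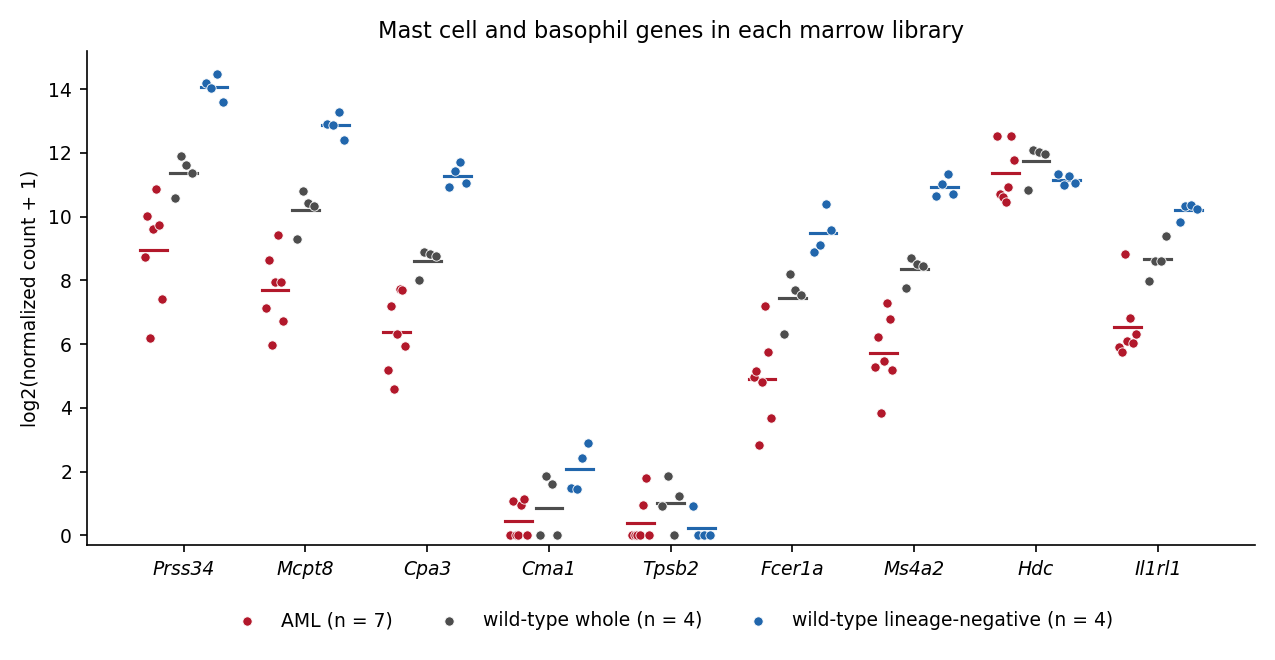
Each point is 1 library, plotted as log2(normalized count + 1) for the 9 genes in AML (n = 7), wild-type whole (n = 4) and wild-type lineage-negative marrow (n = 4), and bars mark group means on that scale. Prss34, Mcpt8, Cpa3, Fcer1a, Ms4a2 and Il1rl1 rise from AML through whole to lineage-negative marrow, Hdc does not, and Cma1 and Tpsb2 lie near 0 in every group.

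Of the granule proteases, Prss34 was the most abundant. It encodes mast cell protease 11, a serine protease of basophils (ENSMUSG00000056399, chromosome 17, 25517368 to 25519139, plus strand; positions of genes are as in the deposited table). Its normalized counts in lineage-negative marrow were 18735, 16784, 22910 and 12334. Whole marrow held 1528.5, 3843, 3150.5 and 2639, and AML ran from 72.3 through a median of 782 to 1856. Lineage-negative libraries were all above whole marrow. In AML, 6 of 7 libraries were below all whole marrow libraries, and replicate 5 was above whole marrow replicate 1. The log2 difference of AML from whole marrow was −2.43 (SE 0.60, adjusted p = 0.00175), a 5.38-fold lower level on the log2(value + 1) scale, and −3.10 relative to the median gene. The difference from lineage-negative marrow was −5.13 (SE 0.60, adjusted p = 8.65e-07), or 35.1-fold lower.

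Mcpt8 encodes mast cell protease 8, which despite its name is the granule protease that defines mouse basophils (ENSMUSG00000022157, chromosome 14, 56319623 to 56322730, minus strand). Lineage-negative marrow held 7723, 7537, 9924 and 5406 normalized counts. Whole marrow held 626.5, 1813, 1387 and 1287, and AML ran from 62.5 through 247 to 691. The overlap was again AML replicate 5 with whole marrow replicate 1, and 6 of 7 AML libraries were below all whole marrow libraries. AML was 5.78-fold lower than whole marrow (log2 difference −2.53, SE 0.46, adjusted p = 0.000136) and 36.2-fold lower than lineage-negative marrow (−5.18, SE 0.46, adjusted p = 2.43e-08).

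Cpa3 encodes mast cell carboxypeptidase A, a granule enzyme of mast cells that basophils and their progenitors also transcribe (ENSMUSG00000001865, chromosome 3, 20269784 to 20296345, minus strand). Its values were 1963, 2753, 3356 and 2150 in lineage-negative marrow and 254.9, 473.0, 449.8 and 432.5 in whole marrow. AML ran from 23.3 through 79.4 to 211. The 3 groups did not overlap. AML was lower than whole marrow by 4.69-fold (log2 difference −2.23, SE 0.47, adjusted p = 0.000448) and than lineage-negative marrow by 29.9-fold (−4.90, SE 0.47, adjusted p = 5.68e-08).

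The proteases that mark mature mast cells were at or near the floor. Cma1, the chymase of connective tissue mast cells (ENSMUSG00000022225, chromosome 14, 56178908 to 56182132, minus strand), had an estimated 2, 2, 5 and 10 reads in the lineage-negative libraries. Whole marrow held 0, 2, 2 and 0 reads, and 0 or 1 in each AML library. Tpsb2, a mast cell tryptase (ENSMUSG00000033825, chromosome 17, 25585279 to 25588072, plus strand), had 0 reads in 5 AML libraries and 1 and 2 in replicates 5 and 6. The other groups held 0 to 2 reads of Tpsb2 per library. At this depth no difference in Tpsb2 was detectable, and for Cma1 only 2 lineage-negative libraries exceeded the floor of 3 reads. Of the other mast cell genes listed, several were undetected in AML and lineage-negative marrow: Mcpt4, Mcpt9, Tpsab1, Mrgprb1 and Mrgprb2 were at 0 in all 7 AML and all 4 lineage-negative libraries, and Cma2 was at 0 in all 15. A few reads were found for others. Lineage-negative replicate 4 held 4 reads of Mcpt1 and 2 of Mcpt2, each lineage-negative library held 1 or 2 of Mrgpra6, and AML replicates 2 and 4 held 2 and 1 of the tryptase Tpsg1. All but Mcpt1 were under the floor there. In whole marrow the highest library among the 6 undetected genes was Mrgprb1 with 10.8 normalized counts, within the range of the olfactory receptor genes there. The label of the set thus holds for its basophil genes and the genes both lineages share, and not for the defining genes of mature mast cells.

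The IgE-specific chains of the receptor moved with the proteases. Fcer1a, the alpha chain that binds IgE (ENSMUSG00000005339, chromosome 1, 173048851 to 173054781, minus strand), had 470.2, 555.2, 1351 and 764.2 normalized counts in lineage-negative marrow. Whole marrow held 78.1, 294.8, 205.6 and 186.9, and AML ran from 6.13 through 30.5 to 147. AML replicate 5 was above whole marrow replicate 1, and the other 6 AML libraries were below all of whole marrow. The log2 difference was −2.52 against whole marrow (SE 0.58, adjusted p = 0.000996) and −4.58 against lineage-negative marrow (SE 0.58, adjusted p = 2.48e-06). Lineage-negative exceeded whole marrow by 2.06 (SE 0.65, adjusted p = 0.00997). That call was lost without whole marrow replicate 1, where the difference was 1.68 and the adjusted p 0.0555.

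Ms4a2, the beta chain that amplifies the receptor's signal (ENSMUSG00000024680, chromosome 19, 11592887 to 11601083, minus strand), had 1620, 2072, 2611 and 1685 normalized counts in lineage-negative marrow. Whole marrow held 215.4, 416.7, 369.4 and 349.3, and AML ran from 13.5 through 43.1 to 157. The groups did not overlap. AML was lower than whole marrow by 6.21-fold (log2 difference −2.63, SE 0.44, adjusted p = 6.59e-05) and than lineage-negative marrow by 37.0-fold (−5.21, SE 0.44, adjusted p = 1.38e-08).

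The gamma chain went the other way. Fcer1g, which signals for several activating receptors of myeloid cells, had 4440 to 6465 normalized counts in AML with a median of 5145. Whole marrow held 1831, 3106, 2547 and 2025, and lineage-negative marrow 1026, 843.4, 713.0 and 932.0. AML was therefore the highest group and lineage-negative marrow the lowest, with no overlap. The log2 difference of AML was 2.60 against lineage-negative marrow (SE 0.18, adjusted p = 7.58e-10) and 1.19 against whole marrow (SE 0.18, adjusted p = 2.2e-05). After TMM scaling (trimmed mean of M values) the latter was 0.46 and no longer called. Lyn, the kinase that first phosphorylates the receptor, had the same order, with a log2 difference of 2.39 from lineage-negative marrow (SE 0.20, adjusted p = 1.4e-08). From whole marrow it differed by 1.27 (adjusted p = 4.28e-05), and by 0.55 with TMM, which was not called.

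**Figure D2:**
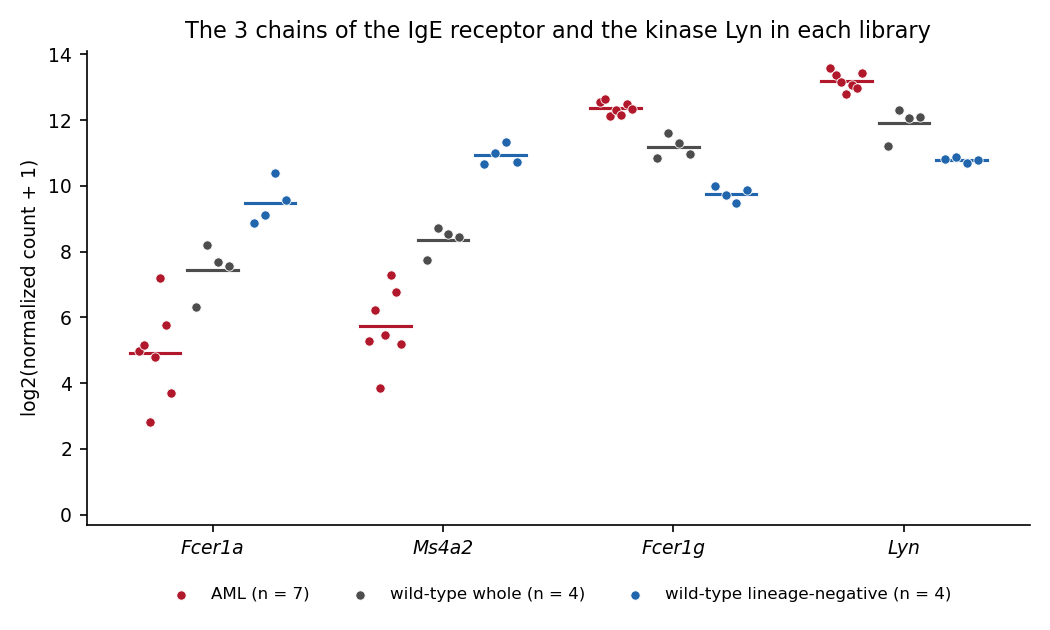
Points are libraries and bars group means of log2(normalized count + 1) for the 3 chains of the IgE receptor and the kinase Lyn. Fcer1a and Ms4a2 are lowest in AML and highest in lineage-negative marrow, whereas Fcer1g and Lyn are highest in AML and lowest in lineage-negative marrow.

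Hdc stood apart from the other members. It encodes histidine decarboxylase, which basophils and mast cells use to make histamine and which immature neutrophils and other myeloid cells also express (ENSMUSG00000027360, chromosome 2, 126435587 to 126461219, minus strand). Its normalized counts were 2566, 2064, 2499.5 and 2108 in lineage-negative marrow and 1839, 4391, 4191 and 3977 in whole marrow. AML ran from 1425 through 1942.5 to 5967.5. Of the AML libraries, replicates 1, 6 and 7 were above all lineage-negative libraries and the other 4 below all of them. AML differed from whole marrow by −0.37 (SE 0.37, 95% interval −1.09 to 0.36, adjusted p = 0.393) and from lineage-negative marrow by 0.20 (SE 0.37, interval −0.52 to 0.92, adjusted p = 0.686). Lineage-negative differed from whole marrow by −0.57 (SE 0.42, adjusted p = 0.242). With TMM scaling Hdc was called lower than whole marrow in AML (−1.09, adjusted p = 0.0236) and in lineage-negative marrow (−1.33, adjusted p = 0.00963), so these 2 comparisons rest on the scaling. Within libraries, the ratio of Hdc to Mcpt8 in normalized counts was 0.252 to 0.39 in lineage-negative marrow, 2.42 to 3.09 in whole marrow and 2.81 to 42.0 in AML, with a median of 24.2. That ratio is the same under any scaling by 1 factor per library. The summed neutrophil markers, 9 genes with none at 0, were 963 to 16400 in lineage-negative marrow, 417000 to 1130000 in whole marrow and 388000 to 1350000 in AML. Their part in the level of Hdc across the 3 groups was not tested, and their relation over the 7 AML libraries is given below.

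Il1rl1 encodes ST2, the receptor for the alarmin IL-33, which type 2 innate lymphoid cells and some T cells carry too (ENSMUSG00000026069, chromosome 1, 40468730 to 40504575, plus strand). Lineage-negative marrow held 906.8, 1290, 1331 and 1217 normalized counts. Whole marrow held 251.3, 393.9, 394.5 and 679.4, and AML ran from 52.9 through 67.6 to 453. AML replicate 3 lay within the range of whole marrow, and the other 6, at 112.3 or less, were below it. AML was lower than whole marrow by 4.35-fold (log2 difference −2.12, SE 0.43, adjusted p = 0.000326) and than lineage-negative marrow by 12.6-fold (−3.66, SE 0.43, adjusted p = 8.78e-07). Lineage-negative exceeded whole marrow by 1.54 (SE 0.48, adjusted p = 0.0091), a call lost with TMM scaling (0.77, adjusted p = 0.189). The T, NK and innate lymphoid markers summed to 3030 in AML replicate 3 and 3870 in replicate 6, where Il1rl1 was 64.2, and their lowest AML sum was 788. Whole marrow held 676 to 1280 and lineage-negative marrow 481 to 622 of these 10 markers, none of them at 0 in a whole group. Their part in the value of replicate 3 was not tested.

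**Figure D3:**
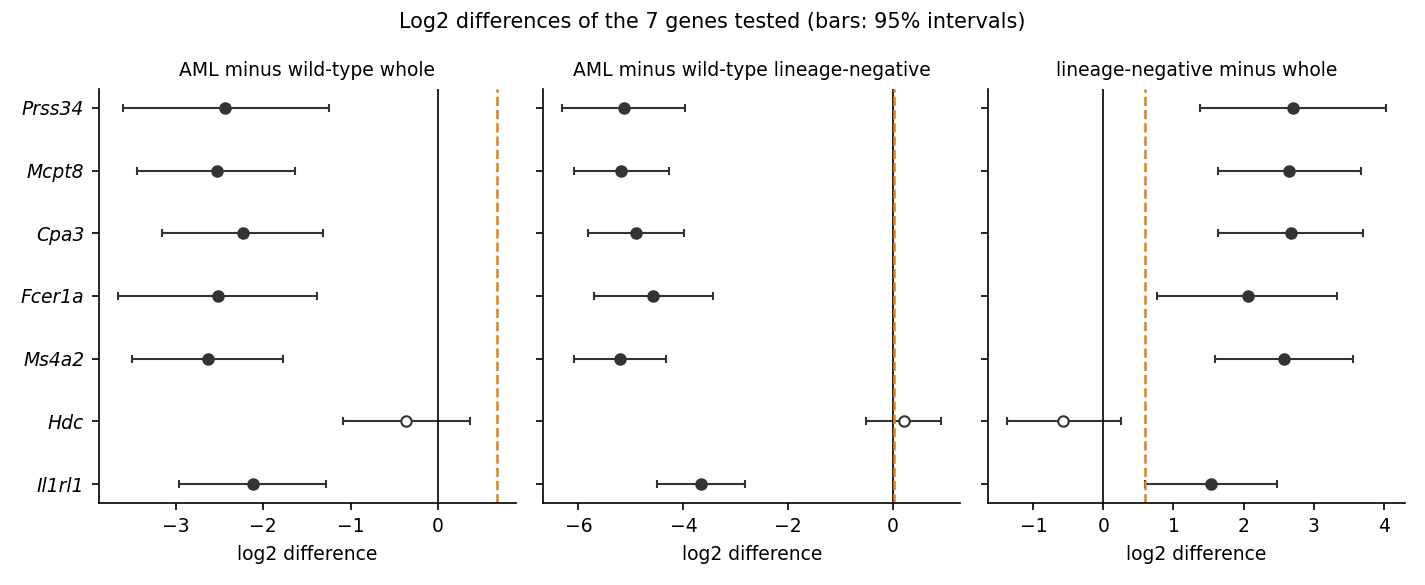
Log2 differences of the 7 genes tested in the 3 comparisons, with bars of 95% intervals, filled points for called genes, a solid line at 0 and a dashed line at the median of all genes (0.67, 0.02 and 0.59). The 6 called genes lie on 1 side of both lines in each comparison, and Hdc, the open point, has an interval across 0 in all 3.

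Lineage-negative marrow exceeded whole marrow by similar amounts for 4 of the members. The log2 differences were 2.71 for Prss34 (SE 0.68, adjusted p = 0.00172), 2.67 for Cpa3 (SE 0.53, adjusted p = 0.000207), 2.65 for Mcpt8 (SE 0.52, adjusted p = 0.000205) and 2.58 for Ms4a2 (SE 0.50, adjusted p = 0.000181). All 4 lineage-negative libraries were above all 4 whole marrow libraries for each. With TMM scaling 4 of the 6 calls held, and Fcer1a at 1.29 (adjusted p = 0.0992) and Il1rl1 did not. Several lists of mature cell markers were mostly lower in lineage-negative marrow. All 9 neutrophil and all 8 B cell markers were called lower, and of 10 erythroid markers 6 were lower and 1 higher. Of 8 megakaryocyte markers 1 was higher and 1 lower. Over all genes tested 33.1% were higher and 17.2% lower. Among the stem and progenitor markers 8 of 10 were called higher and 1 lower. With TMM 5 of these 10 were higher and 1 lower. The summed stem and progenitor markers were 101000 to 152000 against 15500 to 33800 in whole marrow. Most of these sums came from 1 marker, Mpo, with 79400 to 124000 and 12200 to 25800.

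On a scale per kilobase of exon, levels can be roughly compared between genes. The length used merges all annotated exons of a gene and can exceed that of the transcript present, which would lower the value. It was longest for Il1rl1 (6894 bases) and Hdc (6389 bases). In lineage-negative marrow the mean per kilobase was 14500 for Prss34, 7663 for Mcpt8, 1685 for Cpa3, 787 for Fcer1a, 710 for Ms4a2, 361 for Hdc and 172 for Il1rl1. The SDs of neighbours overlapped only for Fcer1a (398, n = 4) and Ms4a2 (162, n = 4). Whole marrow had the order Prss34 (2287), Mcpt8 (1281), Hdc (563), Cpa3 (265), Fcer1a (192), Ms4a2 (120) and Il1rl1 (62.3). There the ranges of 1 SD overlapped between Prss34 and Mcpt8, between Cpa3 and Fcer1a and between Fcer1a and Ms4a2. In AML Prss34 was at 608 (SD 498, n = 7), Hdc at 491 (SD 317) and Mcpt8 at 270 (SD 217), followed by Cpa3 at 71.8, Fcer1a at 44.5, Ms4a2 at 23.8 and Il1rl1 at 18.4. In the AML order the ranges of 1 SD overlapped between all neighbours. These ranges describe spread between libraries and ignore that the genes were measured in the same libraries. Within each AML library Mcpt8 was above Cpa3 per kilobase, with Cpa3 to Mcpt8 ratios of 0.255 to 0.83 before division by exon length. In each whole marrow library Prss34 was above Mcpt8 per kilobase, with ratios of 2.05 to 2.44 before that division. By mean, Hdc was the sixth of the 7 genes in lineage-negative marrow and the second in AML.

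The AML libraries varied more among themselves than the wild-type ones for all 7 genes tested, a description with no test. The SD as a share of the mean was 64.6% (Hdc) to 114% (Il1rl1) in AML, 24.8% (Cpa3) to 46.5% (Fcer1a) in whole marrow and 11.3% (Hdc) to 50.6% (Fcer1a) in lineage-negative marrow. For the 5 genes Cpa3, Mcpt8, Prss34, Fcer1a and Ms4a2, AML replicate 3 was the lowest of the 7 libraries and replicate 5 the highest in all 5. Cpa3 was close in the next library, with 211.4 in replicate 5 and 204.8 in replicate 6. These 5 genes varied together. Over the 7 AML libraries their 10 pairs had Pearson's r of 0.83 to 0.967 on the log2 scale (exact permutation p from 0.000397 to 0.0187, Benjamini-Hochberg adjusted 0.00833 to 0.0392 over all 21 pairs). Spearman's rho was 0.821 to 0.964, with an adjusted exact p of 0.0146 to 0.0717, under 0.05 for 8 of the 10. Without the 2 libraries farthest from the median, r was 0.596 to 0.944. Hdc did not follow them: its 6 pairs had r from −0.412 to 0.188, with an adjusted exact permutation p of at least 0.569. Nor did Il1rl1, whose 6 pairs had r from −0.658 to −0.412 with an adjusted exact permutation p of at least 0.201. Spearman's rho of these pairs was −0.357 to −0.179. Without the 2 libraries farthest from the median their r ran from −0.736 to 0.696, so its sign is not stable.

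**Figure D4:**
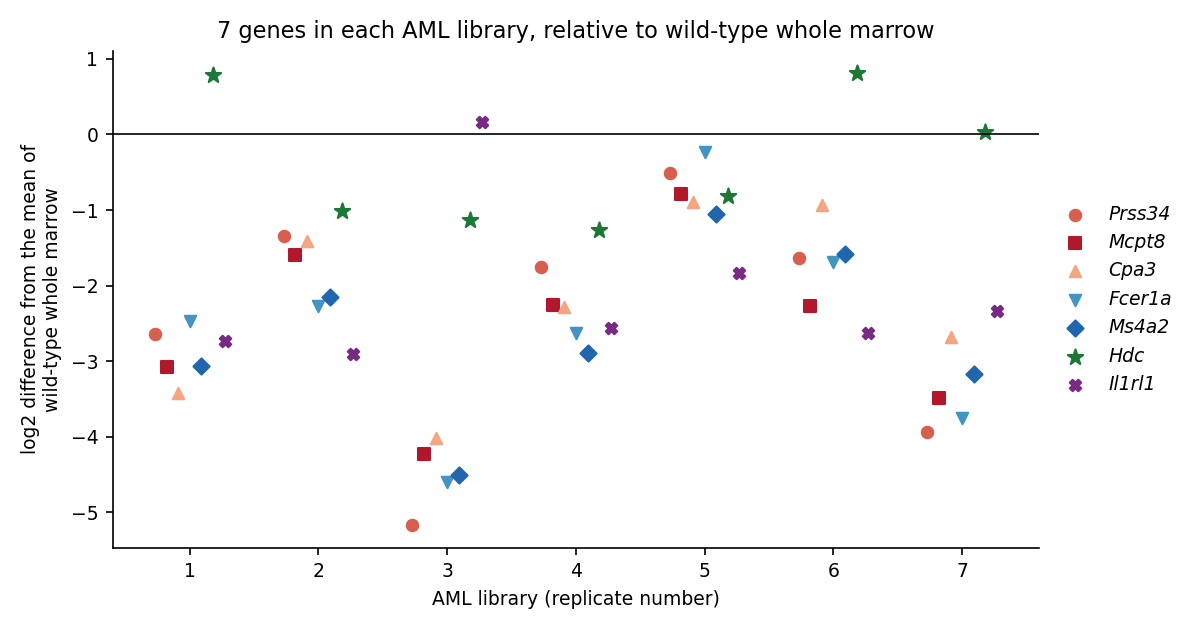
For each of the 7 AML libraries, the log2(normalized count + 1) of 7 genes is shown as a difference from the mean of the 4 wild-type whole marrow libraries, marked by the line at 0. The 5 basophil genes move together from replicate 3, the lowest, to replicate 5, while Il1rl1 is highest in replicate 3 and Hdc in replicates 1 and 6.

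Other cell markers also differed among the AML libraries. Replicate 3 had the highest sums of B cell (6430), erythroid (31700) and eosinophil (3000) markers of the 7. Replicate 5 had the highest sum of stem and progenitor markers (73600), of which Mpo held 56900. Of 63 relations between the 7 genes and the 9 marker sums, 0 passed an adjusted exact permutation p of 0.05, and 1 passed unadjusted. That one was Hdc with the neutrophil sum (r = 0.825, exact permutation p = 0.0224, adjusted 0.626, rho = 0.714), which fell to r = 0.349 without replicates 1 and 6. Prss34 and Mcpt8 kept a nearly fixed ratio in normal marrow, 2.05 to 2.44 in whole and 2.23 to 2.43 in lineage-negative libraries. In AML the ratio ran from 1.16 in replicate 3 to 3.44 in replicate 6. Leaving out AML replicates 5 and 6, which carried the higher olfactory receptor signal, left 6 members called lower against each reference group. Replicate 5 was the highest AML library for Cpa3, Mcpt8, Prss34, Fcer1a and Ms4a2. Leaving it out lowers their AML means, so this run is a weak check of those calls.

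Beyond the members, other genes of mast cells and basophils divided. Of 31 such genes 18 were tested, and 1 was called higher and 7 lower in AML than in whole marrow, with a median log2 difference of −0.28. Against lineage-negative marrow 4 were higher and 11 lower, with a median of −2.27. Counts of this and later lists stand beside the shares of all genes tested. For AML against whole marrow these were 27.3% higher and 11.3% lower. For AML against lineage-negative marrow they were 17.7% and 12.5%, and for lineage-negative against whole marrow 33.1% and 17.2%. Cd200r3, an activating receptor of basophils and mast cells, had 70.9, 119.3, 107.5 and 118.7 normalized counts in whole marrow and 432.7 to 750.9 in lineage-negative marrow, against 2.16 to 42.5 in AML. Its log2 difference was −2.83 from whole (adjusted p = 0.000189) and −5.24 from lineage-negative marrow (adjusted p = 1.48e-07). Cyp11a1, a steroid-synthesis enzyme also transcribed by these cells, differed in AML by −2.09 from whole (adjusted p = 0.000187) and by −4.46 from lineage-negative marrow (adjusted p = 2.22e-08). The cytokine gene Il6 had 92.7 to 245 normalized counts in lineage-negative and 15.3 to 23.2 in whole marrow but at most 8.58 in AML, where 4 of 7 libraries were at or under the floor. Slc6a4, the serotonin transporter, was at 18.8 to 71.0 in whole and 20.2 to 39.7 in lineage-negative marrow and at most 9.87 in AML. Fitted differences of these 2 depend on the pseudocount. In whole marrow the Il6 values were not far above the mean of the olfactory receptor genes there, 7.14 to 13.5.

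Itga2b, an integrin chain of platelets and early progenitors that mast cells and basophils can carry, was lower in AML than in whole marrow (−1.99, adjusted p = 0.000471) and than in lineage-negative marrow (−4.35, adjusted p = 6.66e-08). The integrin chain gene Itgb7 was higher in AML, by 2.63 (adjusted p = 5.63e-08) and 2.43 (adjusted p = 3.86e-08). Kit, the receptor for stem cell factor that mast cells and early progenitors share, was lower in AML than in lineage-negative marrow (−2.62, adjusted p = 2.77e-07) and did not pass against whole marrow (0.46, adjusted p = 0.158). In lineage-negative against whole marrow 9 of the 18 were higher and 3 lower, Kit with 3.08 (adjusted p = 2.52e-07) and the inhibitory receptor Lilrb4a with −2.49 (adjusted p = 6.56e-06). With TMM scaling 1 was higher and 9 lower in AML against whole marrow.

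Eosinophil, erythroid and B cell markers were lower in AML than in whole marrow beside the basophil genes. All 8 eosinophil markers were called lower than in whole marrow, with sums of 969 to 3000 against 25200 to 56300, and 6 of 8 lower than in lineage-negative marrow at 8130 to 43700. All 10 erythroid markers were lower than in whole marrow, with sums of 3200 to 31700 against 791000 to 1960000. Against lineage-negative marrow 4 of the 10 were lower (median −1.28), and the sums overlapped, since that marrow held 25700 to 57500. All 8 B cell markers were lower than in whole marrow (median −2.86), with overlapping sums of 500 to 6430 against 4160 to 9010, but 6 of 8 were higher than in lineage-negative marrow (median 2.92), whose sums of 313 to 555 overlapped those of AML. Of the stem and progenitor markers 6 of 10 were lower and 1 higher than in lineage-negative marrow (median −2.15). Their sums, most of them Mpo, were 13800 to 73600 against 101000 to 152000. Against whole marrow 3 of these 10 were higher and 0 lower, or 1 and 2 with TMM. Of the megakaryocyte markers 6 of 8 were lower than in whole marrow. The sums of the 8 overlapped, 1500 to 2340 against 1220 to 3180. Much of these sums came from Itgb3, which was not among the 6, with 1160 to 1790 in AML and 669 to 1550 in whole marrow. None of these markers was at 0 in all libraries of a group. Macrophage and monocyte markers summed to 55600 to 90200 in AML against 13200 to 29200 in whole marrow. Their part in the basophil genes' difference was not tested.

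Downstream of the IgE receptor, all 16 signalling genes were tested, and none was called lower in AML. Against lineage-negative marrow 8 were higher, with a median of 1.00, and beside Fcer1g and Lyn the largest were the adaptor Lcp2 (1.87, adjusted p = 4.54e-08) and the phosphatase Ptpn6 (1.60, adjusted p = 8.08e-07). Against whole marrow 12 were higher, with a median of 1.09, led by the adaptor Lat2 (2.35, adjusted p = 7.12e-07), the kinase Fyn (1.85, adjusted p = 4.7e-06), the adaptor Gab2 (1.71, adjusted p = 2.24e-06) and the ubiquitin ligase Cbl (1.48, adjusted p = 0.000278). With TMM scaling 2 of the 16 were called higher, and Gab2 at 0.98 and Cbl at 0.75 were not. These genes serve many receptors of myeloid cells. In lineage-negative against whole marrow 3 were higher and 2 lower, among them Plcg1 (1.77, adjusted p = 6.24e-06) and Lat (1.37, adjusted p = 0.00632). Both counts are below the shares of all genes tested, 33.1% higher and 17.2% lower. The Lat call was lost with TMM (0.61, adjusted p = 0.224) and with quantile scaling (0.82, adjusted p = 0.0886). With TMM 1 of the 16 was higher and 5 lower.

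Of the 8 genes of IL-33 signalling 7 were tested. Myd88, the adaptor that ST2 shares with Toll-like receptors, had 1896 to 3369 normalized counts in AML against 512.5, 1159, 1223 and 809.1 in whole marrow, a log2 difference of 1.46 (adjusted p = 2.3e-05). It was called against lineage-negative marrow too (1.96, adjusted p = 5.22e-07), as was the kinase Irak4 (1.09, adjusted p = 5.53e-05). Against whole marrow 4 were higher and 0 lower, with a median of 1.02, led by the inhibitory receptor Sigirr (1.92, adjusted p = 6.04e-06). With TMM 1 of 7 was higher, and Myd88 at 0.74 was not called. In lineage-negative against whole marrow 2 were higher, Sigirr (1.82, adjusted p = 1.9e-05) and Irak1 (1.23, adjusted p = 4.57e-05), which was at 0.46 and not called with TMM. That count of 2 in 7 is near the 33.1% of all genes tested. Receptor and adaptor thus differed in opposite directions in AML against lineage-negative marrow, Il1rl1 by −3.66 and Myd88 by 1.96.

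IL-3 is the main growth factor of basophils, and the genes of its receptor chains were at least as high in AML as in the references by mean. Il3ra, the IL-3-specific chain, had 256.1 to 439.4 normalized counts in AML, 266.3 to 509.2 in lineage-negative marrow and 61.0, 127.3, 85.6 and 68.2 in whole marrow. The AML difference was 2.17 from whole marrow (SE 0.23, adjusted p = 8.5e-07) and 0.10 from lineage-negative marrow (SE 0.23, adjusted p = 0.758). Csf2rb2, a beta chain used by IL-3 alone in the mouse, was 2.22 above whole marrow (adjusted p = 0.000632). Its difference from lineage-negative marrow was 1.55 (adjusted p = 0.0125), and 3 of 7 AML libraries were above all 4, where lineage-negative replicate 1 reached 1349 and replicate 2 was 130.7. Without lineage-negative replicate 2 that call was lost (1.03, adjusted p = 0.0829). Csf2rb and Csf2rb2 are close paralogs, and reads may have been split between them. Csf2ra, the GM-CSF receptor chain, was 2.37 above lineage-negative marrow (adjusted p = 6.45e-09), and Crlf2, the receptor for TSLP, was 1.76 above whole marrow (adjusted p = 1.44e-05).

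Il5ra, the IL-5 receptor chain of eosinophils and basophils, was the only one of the 7 receptor genes called lower in AML. It had 2.83 to 38.0 normalized counts there, 109.5 to 227.5 in whole marrow and 26.4 to 114.9 in lineage-negative marrow, with log2 differences of −3.94 (adjusted p = 4.64e-06) and −2.27 (adjusted p = 0.000967). Over the 7 genes, 5 were higher and 1 lower against whole marrow (median 1.34), 4 and 1 against lineage-negative marrow (median 1.16), and 1 and 3 in lineage-negative against whole marrow (median −0.04). With TMM the count against whole marrow was 3 higher and 2 lower.

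Among 17 transcription factors of the lineage, the 4 called lower in AML were the same against both references: Gata1, Gata2, Tal1 and Zfpm1. GATA2 is needed for mast cell and basophil development. Gata2 had 3803, 2617, 3623 and 2439.5 normalized counts in lineage-negative marrow and 192.1, 282.7, 308.9 and 294.7 in whole marrow, against 38.2 to 194.4 in AML with a median of 83.2. All AML libraries were below all lineage-negative ones, and 6 of 7 below all whole marrow ones. The log2 differences of Gata2 were −5.15 from lineage-negative marrow (SE 0.37, adjusted p = 1.58e-09) and −1.63 from whole marrow (SE 0.37, adjusted p = 0.000994). Lineage-negative exceeded whole marrow by 3.52 (SE 0.42, adjusted p = 1.23e-06).

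Gata1, which also drives red cell, platelet and eosinophil development, had 5.09 to 42.0 normalized counts in AML, 429.9 to 1059 in whole marrow and 1464 to 1707 in lineage-negative marrow. Its log2 differences were −5.27 (adjusted p = 1.17e-08) and −6.35 (adjusted p = 2.75e-10). Tal1, a partner of GATA factors in blood progenitors, differed by −4.32 (adjusted p = 9.11e-09) and −4.63 (adjusted p = 8.16e-10). Zfpm1, the GATA cofactor FOG-1, differed by −3.37 (adjusted p = 2.05e-06) and −4.05 (adjusted p = 7.73e-08). These 3 genes also serve the erythroid and megakaryocyte lineages, whose marker sums are given above. The other direction held Irf8, a monocyte factor, with 2.33 above whole marrow (adjusted p = 1.51e-06). In all, 10 of the 17 were higher and 4 lower against whole marrow (median 1.11), and 4 higher and 4 lower against lineage-negative marrow (median 0.19). With TMM 2 were higher and 4 lower against whole marrow. In lineage-negative against whole marrow 7 of 17 were higher and 0 lower, where 33.1% of all genes tested were higher, so the count is near that background. After Gata2 the largest were Stat5a (2.12, adjusted p = 2.73e-07), Cebpa (1.90, adjusted p = 1.25e-06) and Runx1 (1.68, adjusted p = 1.39e-05). With TMM Runx1 was at 0.91 and not called, and 3 of the 17 were higher and 4 lower.

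**Figure D5:**
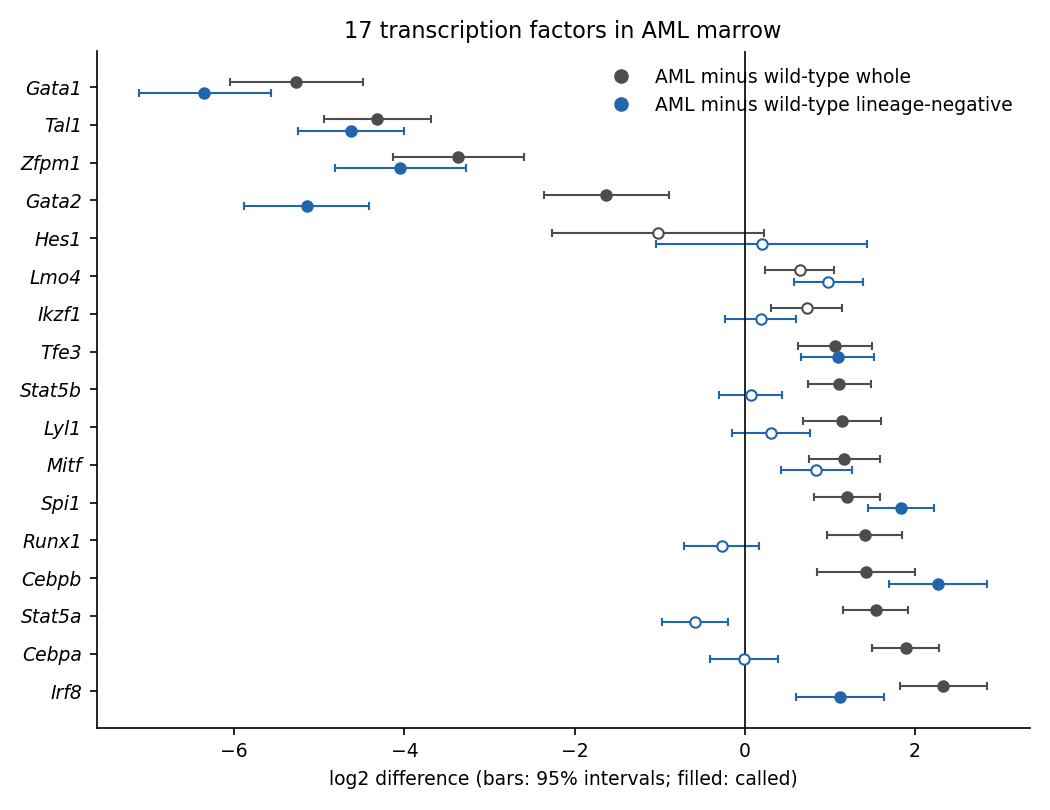
Log2 differences of 17 transcription factors in AML from wild-type whole (grey) and lineage-negative marrow (blue), with bars of 95% intervals and filled points for called genes. Gata1, Tal1, Zfpm1 and Gata2 lie below 0 in both comparisons, and the Gata2 difference is −1.63 from whole but −5.15 from lineage-negative marrow.

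Slc18a2, the transporter that loads histamine and other amines into granules, had 600.0 to 1262 normalized counts in lineage-negative marrow, 100.5 to 260.6 in whole marrow and 111.3 to 284.8 in AML. It was lower in AML than in lineage-negative marrow by a log2 difference of −2.31 (adjusted p = 3.15e-06), did not pass against whole marrow (−0.11, adjusted p = 0.769), and was 2.20 higher in lineage-negative than in whole marrow (adjusted p = 1.55e-05). The receptor gene Hrh4 was listed at 0 in 5 AML libraries, with at most 9.8 in replicate 3. It had 9.0 to 21.9 in whole and 13.1 to 42.3 in lineage-negative marrow. Its whole marrow values were close to the mean of the olfactory receptor genes there, 7.14 to 13.5. Hrh1 was higher in AML than in lineage-negative marrow (4.90, adjusted p = 1.62e-05). That fitted difference is set over lineage-negative libraries with 0 to 9 reads, and AML replicate 6, with 4 reads or 4.94 normalized counts, lay below the highest of them at 5.87. The other 6 AML libraries held 59.8 to 289. Hrh2 was higher by 1.61 (adjusted p = 3.66e-05). Of 8 genes 6 were tested, with 1 higher and 1 lower against whole marrow (median −0.21; TMM 0 and 3) and 2 and 2 against lineage-negative marrow (median −0.06).

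Serglycin and the enzymes that build the heparin chains of granules gave no call between AML and lineage-negative marrow. By limma, 0 of the 9 genes were called there (median −0.44), and 3 of 9 were higher against whole marrow (median 0.98), near the 27.3% of all genes, Ext1 (1.45, adjusted p = 3.33e-05), Ext2 (1.29, adjusted p = 9.84e-05) and Hs2st1 (1.10, adjusted p = 0.000102). None of these 3 remained called with TMM. Of 8 genes of prostaglandin and leukotriene synthesis 7 were tested. Ptgs2, the inducible cyclooxygenase, was lower in AML than in whole marrow (−2.74, adjusted p = 0.000296) and than in lineage-negative marrow (−3.36, adjusted p = 4.5e-05). It had 3.4 to 14.2 normalized counts in 6 AML libraries and 91.3 in replicate 6, against 84.5 to 89.8 in whole marrow. Alox5ap, which presents arachidonic acid to the leukotriene enzyme, was 2.50 above lineage-negative marrow (adjusted p = 1.45e-07) and 1.16 above whole marrow (adjusted p = 0.000686). The latter was 0.43 with TMM and not called. Without whole marrow replicate 1, Alox5ap (0.87), Ext2 (0.98) and Hs2st1 (0.90) also fell short of a call against whole marrow.

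Genes outside the set whose pattern was most like that of the members were ranked by Pearson's r with the mean of the 7 tested members, each centred and scaled, over the 11263 other genes whose mean reached 100 normalized counts. Over all 15 libraries the top 5 were Ifrd2 (r = 0.977), Epdr1 (0.967), Itga2b (0.964), Tfr2 (0.962) and Gstm5 (0.959). All 5 had their lowest mean in AML and their highest in lineage-negative marrow, as for Tfr2, with means of 39.3, 204 and 1470 in AML, whole and lineage-negative marrow. Over the 7 AML libraries alone the top 5 were Rsl1d1 (0.982), the processed pseudogene Gm6477 (0.981), Hus1 (0.975), Bag2 (0.974) and Eif4e (0.968). Within AML, Hdc and Il1rl1 did not follow the other members, so the mean over members mixes unlike profiles there. No gene was among the top 5 of both. These values are a description, since the libraries share groups and depth.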

How the data were processed

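Total RNA of 15 mouse marrow libraries was sequenced after TruSeq stranded preparation, per the labels. The deposited values are a signal, namely normalized counts: reads per gene that the authors scaled by 1 DESeq2 size factor for each library, per the table's name. The submitters' processing notes name STAR, Partek, DESeq2 and mm10. The strand setting of the counting is not given in the sources used here. Gene positions in the table match the GRCm38 annotation for few genes (861 starts of 38066 shared identifiers, 37557 with the same length), so they are given as deposited and the annotation was used for exonic lengths only. Of the low values in a library, 85.5% to 90.6% were whole multiples of the value of 1 read within a tolerance of 0.02, so whole reads were not recovered, count tests were not run, and depths and read numbers are estimates. Floors of 3 reads cover counting error only.

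Genes with at least 10 normalized counts in at least 4 libraries were kept (18941), transformed as log2(value + 1) and fitted in 1 limma model of 3 group means (limma 3.58.1, R 4.3.3, empirical Bayes with a trend, two-sided, Benjamini-Hochberg over all genes kept). Other values were computed in Python 3.11.15 with pandas 2.3.3 and numpy 2.4.6. The fit was tested on simulated data. A difference on the log2(value + 1) scale understates the change of low genes. The members and the pathway and marker lists were chosen with earlier results of these data known. From each pathway list the called genes with the largest absolute difference were named, up to 4 for each comparison, with other genes of a list named where a contrast with a member is drawn.

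Each result was recomputed with a pseudocount of 0.1 or 5, without the filter on low values, with a filter on the mean (50), after scaling by TMM or by quantiles, with separate fits of each pair of groups, with robust variance estimation, with array weights, with the replicate number as a block, without AML replicates 5 and 6, and without each of the 15 libraries in turn.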

Additional observations from a re-analysis of the deposited data

Results flagged for a closer look

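For 58 genes described above, 169 sets of 1 gene in 1 group were checked for a single library far from the others, by its gap to the nearest library as a share of the group's range. This held for 19 sets. A rate of about 1 in 20 applies to normally distributed values in independent sets. The values here were normalized counts without a log, and the sets share libraries, so the count is not set against that rate. Of the members, Fcer1a reached 147 in AML replicate 5 (gap 0.667 of the range), Il1rl1 453 in AML replicate 3 (0.852) and Hdc fell to 1840 in whole marrow replicate 1 (0.838). That whole marrow library was also the lowest for Kit at 404 and Ptgs1 at 437, and it had the lowest total of its group, 10.2 in units of 1e6 normalized counts.

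AML replicate 3 was far above the other AML libraries for Il5ra (38.0), Hrh4 (9.8) and Hrh1 (289) and far below for Il3ra (256). AML replicate 6 was far above for Slc6a4 (9.87), Zfpm1 (533) and Ptgs2 (91.3). Single high AML libraries were also seen for Csf2rb in replicate 1 (11900) and Glce in replicate 5 (775). In lineage-negative marrow, replicate 1 was far above for Gab2 (1370), Crlf2 (840) and Csf2ra (1210), replicate 3 for Il6 (245), and replicate 4 was far below for Sigirr (250).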

How the results depend on the processing

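Over the 7 members, 3 comparisons and 26 alternatives, 536 of 546 values kept their direction and their side of the threshold. In AML against lineage-negative marrow 6 members were called lower under every alternative run. TMM and quantile scaling called Hdc lower in AML than in whole marrow (−1.09 and −1.13) and in lineage-negative than in whole marrow (−1.33 and −1.18), so that 1 member was lower in the last comparison in place of 0. They ended the lineage-negative against whole calls of Fcer1a (1.29 and 1.34) and Il1rl1 (0.77 and 0.83), and the Fcer1a call was also lost without whole marrow replicate 1 (1.68). The labels do not say whether same-numbered libraries of different groups are paired. Such libraries had correlations of deviations from −0.288 to 0.171, and whole with lineage-negative marrow −0.013 to 0.171. Differently numbered libraries were not compared, so these values do not settle pairing. With the replicate number as a block, Hdc in AML against lineage-negative marrow turned from 0.20 to −0.08 (adjusted p = 0.909), 6 members stayed called in each comparison, and the genes called went from 7299 to 7455, 5732 to 5880 and 9525 to 9681. Counts over all genes moved more. Higher in AML than whole marrow were 5167 genes, but 847 with TMM, 2474 with quantile scaling and 3165 without whole marrow replicate 1. Lower were 2132, but 11289 with all non-zero genes, 460 at a mean of at least 50 and 1237 to 1315 without 1 whole marrow library. Higher than in lineage-negative marrow were 3359, but 2225 at a mean of at least 50. In lineage-negative against whole marrow 6266 were higher, but 1829 with TMM and 4133 with quantile scaling, and 3259 lower, but 12497 with all non-zero genes and 1244 at a mean of at least 50. The cause was not tested. Depth limits Cma1 and Tpsb2, which lie at or near the floor of 3 reads.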
